A study of Mus musculus with 5 samples.

Results

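The Hox genes encode homeodomain transcription factors and lie in 4 clusters, Hoxa on mouse chromosome 6, Hoxb on chromosome 11, Hoxc on chromosome 15 and Hoxd on chromosome 2. The genes described here are the listed members of the paralog groups of these clusters, 38 of the 21774 protein-coding genes of the RefSeq annotation (10 Hoxa, 10 Hoxb, 9 Hoxc and 9 Hoxd genes). They were chosen by name and not by a threshold on the values, with earlier results of these data known. DNaseI-seq finds DNaseI hypersensitive sites (DHSs), stretches of chromatin open enough to be cut by the nuclease DNase I. It had been carried out at 5 stages of blood cell development in culture, all obtained from a strain 129 mouse embryonic stem cell line that carries GFP under the mesodermal gene Brachyury (Bry). The stages were mesoderm (MES, Bry:GFP+ Flk1-), hemangioblast (HB, Bry:GFP+ Flk1+), hemogenic endothelium (HE, Tie2+ cKit+ CD41-), then CD41+ hematopoietic progenitors (HP) and, last, CD11b+ macrophages (MAC). Each stage was represented by 1 list of DHSs with their positions on mm10 and no height or read count. There were therefore no replicates, no spread and no test between stages, and every comparison below is a description of these 5 lists. In sorted populations, a site open in fewer cells and one less open in every cell cannot be told apart. A stage without a site is one in which none was listed, which is not the same as closed chromatin.

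Hox genes set position along the body axis. Within a cluster the genes lie in the order in which they are used, from the anterior 3′ genes to the posterior 5′ genes, and in embryonic stem cells the clusters are held silent by Polycomb complexes, which place the repressive mark H3K27me3. Mll1 (encoded by Kmt2a) keeps Hox genes active, and retinoic acid, Cdx proteins and the insulator protein CTCF shape where active domains begin and end. In blood, central and posterior genes of the Hoxa and Hoxb clusters are best known from stem cells and progenitors, in which their expression falls as cells mature.

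The lists held 21949 (MES), 24729 (HB), 33305 (HE), 17734 (HP) and 37456 (MAC) sites, with median widths of 800, 900, 1200, 900 and 600 bp. HE thus had the widest sites and MAC the longest list of narrow sites, and the lists themselves carry no measure of depth. By the read totals that the study gives, the MES and HB libraries were deeper than that of HE, MAC was close to HE, and HP was the shallowest. Of the marker genes, some had sites at the labelled stages alone and others did not. A site at the promoter of the mesodermal gene T (Brachyury itself) was listed in MES and HB and at no later stage, at those of the endothelial genes Tek (which encodes Tie2) and Cdh5 in HE alone, at Itga2b (which encodes CD41) in HE and HP, and at the macrophage genes Itgam (which encodes CD11b), Csf1r and Adgre1 in MAC alone. The other mesodermal markers, Mixl1 and Pdgfra, also had a site in HE, and Pdgfra had one in MAC. Kit (which encodes cKit) and Etv2 had sites from MES to HP, Tal1 from HB to MAC and Spi1 from HE to MAC. Kdr (which encodes Flk1) and Runx1 had a site at all 5 stages, so they did not separate the stages, and Gfi1b, fixed as a progenitor marker, had one in MAC and none in HP.

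Sequences from some of the regions described below are given first, as examples. They are windows of 200 bases of the plus strand from the GRCm38.p6 reference, whose chromosomes are those of mm10. Upstream of Hoxa5, the gene with a promoter site at every stage, lies chr6:52204588-52204787, and at a noncoding start of Hoxd11, a gene with a site in HE alone, lies chr2:74679419-74679618. Capitals mark CpG dinucleotides in these 2 windows, 22 in the Hoxa5 window and 4 in the Hoxd11 window. The pair does not stand for a difference between the classes. Hoxd11 counts among the genes with a CpG-rich promoter, as defined below, and 8 of the 10 Hox genes with a site in HE alone do.
Hoxa5 upstream: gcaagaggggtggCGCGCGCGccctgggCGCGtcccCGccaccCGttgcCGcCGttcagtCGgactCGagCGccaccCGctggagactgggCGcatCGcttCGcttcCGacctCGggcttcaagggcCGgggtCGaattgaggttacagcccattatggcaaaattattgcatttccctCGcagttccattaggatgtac
Hoxd11 noncoding start: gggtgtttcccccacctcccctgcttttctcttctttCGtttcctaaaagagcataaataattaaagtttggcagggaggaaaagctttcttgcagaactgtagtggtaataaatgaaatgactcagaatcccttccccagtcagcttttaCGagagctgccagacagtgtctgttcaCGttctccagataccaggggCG
The window chr11:96278714-96278913 upstream of Hoxb8 belongs to a region with a site at every stage but HE, and capitals mark its 2 matches to the GATA motif AGATAA, both on the minus strand. The first lay inside the DHS in HB and HP, and the second in MES, HB and HP. The narrow MAC site held neither.
Hoxb8 upstream: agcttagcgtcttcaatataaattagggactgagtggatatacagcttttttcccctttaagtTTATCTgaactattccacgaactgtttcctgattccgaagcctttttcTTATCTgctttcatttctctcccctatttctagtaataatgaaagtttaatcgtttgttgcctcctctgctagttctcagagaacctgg
The window chr6:52221880-52222079 between Hoxa7 and Hoxa9 comes from a region with a site at every stage but HP, and capitals mark its 2 matches to the CDX motif TTTATNG, 1 on each strand. Both lay inside the DHS in HB and HE, and outside the narrower sites in MES and MAC.
Hoxa7 to Hoxa9: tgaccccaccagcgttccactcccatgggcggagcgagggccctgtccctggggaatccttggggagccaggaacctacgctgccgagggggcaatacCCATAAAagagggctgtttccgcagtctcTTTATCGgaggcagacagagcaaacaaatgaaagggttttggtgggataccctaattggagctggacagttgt
The window chr2:74715827-74716026 in Hoxd3os1 comes from a region with a site at all 5 stages, and the window chr11:96261659-96261858 in Gm53 from a region with sites centred in it in MES and HB, which an HE site of 1700 bp centred elsewhere also covered. Capitals mark a match to a simplified core of the CTCF motif (2 C, 3 free bases, AGG, a free base, then GGC), which is looser than the full motif.
Hoxd3os1: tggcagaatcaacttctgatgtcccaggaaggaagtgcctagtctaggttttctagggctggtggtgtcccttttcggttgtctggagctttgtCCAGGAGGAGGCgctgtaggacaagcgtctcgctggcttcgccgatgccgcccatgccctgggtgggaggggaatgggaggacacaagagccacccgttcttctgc
Gm53: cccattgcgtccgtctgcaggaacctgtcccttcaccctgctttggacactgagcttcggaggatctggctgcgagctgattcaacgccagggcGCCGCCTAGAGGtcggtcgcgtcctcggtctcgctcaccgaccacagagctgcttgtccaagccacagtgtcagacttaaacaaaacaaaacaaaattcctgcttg
The window chr2:74753120-74753319 in Gm14424 comes from a region with a site in HE alone, and capitals mark a PBX-HOX motif (TGATTNAT, here on the minus strand).
Gm14424: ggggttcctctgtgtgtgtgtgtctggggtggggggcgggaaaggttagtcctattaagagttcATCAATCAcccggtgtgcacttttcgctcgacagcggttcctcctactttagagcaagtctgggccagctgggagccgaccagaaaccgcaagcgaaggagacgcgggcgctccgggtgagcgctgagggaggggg

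Few Hox promoters were open in mesoderm, most in HE, and almost none in macrophages. A promoter site was a DHS with any base within 1 kb of a transcription start site (TSS). In MES, 8 of 38 Hox genes had one (21.1%, 95% Wilson interval 11.1 to 36.4%), against 55.5% of all protein-coding genes. In HB the count was 15 (39.5%, 25.6 to 55.3%, all genes 57.1%), and in HE it was 22 (57.9%, 42.2 to 72.2%, all genes 59.9%). In HP it dropped to 7 (18.4%, 9.22 to 33.4%, all genes 48.6%) and in MAC to 2 (5.26%, 1.46 to 17.3%, all genes 48.7%). HE was therefore the stage at which the Hox genes had a site about as often as any gene. In the other 4 lists their share was further below that of all genes. The intervals cover counting error only and treat the genes as independent. The genes lie side by side in 4 clusters, so the intervals may be too narrow, and they are no test between stages. When each list was cut to its 17734 widest sites, the length of the shortest list, the counts from MES to MAC were 6, 10, 11, 7 and 0, so HE no longer stood clearly above HB, while 51.7% of all genes kept a site in HE.

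**Figure D1:**
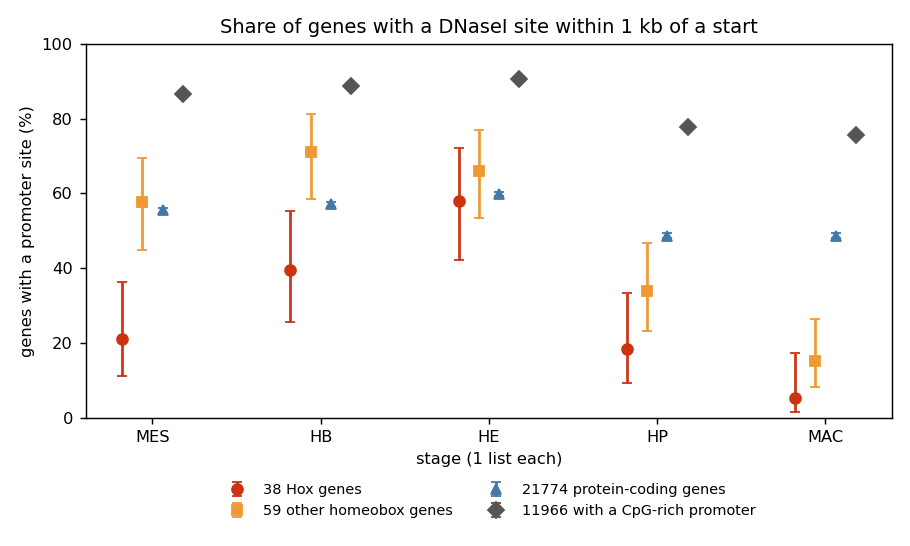
Share of genes with a DHS within 1 kb of a TSS (vertical axis, %) at each stage (horizontal axis), for the Hox genes, 59 homeobox genes of other families, all protein-coding genes and those with a CpG-rich promoter; bars are 95% Wilson intervals. The Hox share rises from 21.1% in MES to 57.9% in HE and falls to 5.26% in MAC, whereas that of all genes stays between 48.6% and 59.9%.

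Homeobox genes of other families (such as the Nkx, Lhx, Dlx, Irx and Pax genes, 59 in all), developmental regulators like the Hox genes, were open more often in the early lists. The share with a promoter site was 57.6% in MES and 71.2% in HB. It was 66.1% in HE, 33.9% in HP and then 15.3% in MAC. The low shares in HP and MAC were thus found in both families, whereas in MES the other homeobox genes were close to the level of all genes and the Hox genes were not. Of the 38 Hox genes, 26 had a CpG-rich promoter, defined as a GC share of at least 0.5 and an observed to expected CpG ratio of at least 0.6. Among these, 6 had a site in MES, 9 in HB, 16 in HE (61.5%, 42.5 to 77.6%), 3 in HP and 1 in MAC. Of the 11966 protein-coding genes with such promoters, 86.7%, 88.9%, 90.6%, 77.7% and 75.5% had one. Set against promoters of like base composition, the CpG-rich Hox promoters were below the background at all 5 stages, HE included. Of the other homeobox genes 81.4% had such a promoter, against 55.0% of all genes. Their shares, taken over all 59, were likewise below this background at all 5 stages, with 57.6% in MES. The 12 Hox genes without a CpG-rich promoter had sites in 2, 6, 6, 4 and 1 cases from MES to MAC. Among protein-coding genes without such a promoter, the shares were 17.4%, 18.4%, 22.3%, 13.2% and 15.98%. The Hox shares were 16.7% in MES and 8.33% in MAC, 50.0% in HB and HE (25.4 to 74.6%), and 33.3% in HP (13.8 to 60.9%), so they lay above this background at the middle stages and not in MES or MAC.

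Of the 7 anterior genes (paralog groups 1 to 3), 2, 2, 5, 0 and 0 had a promoter site from MES to MAC. Hoxa2, which patterns the second pharyngeal arch, and its paralog Hoxb2 had one in HE alone, of 1300 bp and 1700 bp. The Hoxb2 site covered a start annotated as a predicted transcript, whereas the Hoxa2 site began 0.723 kb inside the gene. Hoxa3, which acts in endothelium before blood emerges, had a site of 500 bp in HB and of 1900 bp in HE, the widest site of its cluster. Hoxd3 had one of 700 bp in HE alone. Hoxb3 was listed in MES and HE, at starts of predicted transcripts. The element concerned, in an intron, had sites of 700, 600, 1400 and 500 bp from MES to HP, of which those in HB and HP lay 1.04 kb and 1.10 kb from the nearest start, just outside the limit. In HE a separate site of 500 bp lay near another predicted start. Hoxd1 went the other way, with sites of 700 bp in MES and HB and none later. Hoxb1, a hindbrain gene, had no promoter site at any stage. No anterior gene had a site in HP or MAC.

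Of the 15 central genes (groups 4 to 8), 3, 7, 8, 5 and 2 had a promoter site, and both Hox genes with a site in MAC were among them. Hoxa5, which is involved in lung and axial patterning and in myeloid differentiation, had a site over its TSS at every stage. Its widths were 600 bp (MES), 800 bp (HB), 1700 bp (HE), 800 bp (HP) and 600 bp (MAC), so that the HE site was the widest and the other 4 were no wider than 800 bp. Hoxb4, known for expanding blood stem cells when overexpressed, had sites of 500, 900, 2000 and 600 bp from MES to HP and none in MAC. The HE site, chr11:96317911-96319910, was the widest in the 4 clusters. Its neighbour Hoxb5, which marks long-term blood stem cells, had sites of 900 bp in HB, 1600 bp in HE and 900 bp in HP. Hoxb8, whose forced expression keeps myeloid progenitors dividing, showed the reverse of most genes. It had sites of 300 bp (MES), 600 bp (HB), 600 bp (HP) and 200 bp (MAC), and none in HE, and the TSS concerned belonged to predicted transcripts. Hoxa7 had a site of 600 bp in HP alone, chr6:52217557-52218156, which lay 0.417 kb inside the gene. Hoxb6 (800 bp), Hoxb7 (400 and 500 bp) and Hoxd8 (600 bp) had sites in HE alone. Hoxc4 had sites of 700 bp in HB and 1200 bp in HE, Hoxc6 of 900 bp and 1400 bp, both at predicted starts, and Hoxc5 of 700 bp in HB alone. Hoxa4, Hoxa6, Hoxc8 and Hoxd4 had none.

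Of the 16 posterior genes (groups 9 to 13), 3, 6, 9, 2 and 0 had a promoter site. Hoxa10, a regulator of myeloid and megakaryocyte precursors, had sites of 300, 600 and 700 bp in MES, HB and HE and none later. Its paralog Hoxc10 had sites of 600, 800 and 700 bp at the same 3 stages. Hoxd10, a limb gene, was open from HB to HP with 800, 1700 and 500 bp. Hoxc13, a gene of hair and nails, had sites of 1200, 1100, 800 and 800 bp from MES to HP, so that, unlike those of Hoxa5 and Hoxb4, its site was narrower in HE than in MES. Hoxb13, known from prostate and tail, had sites of 400 bp in HB and 800 bp in HE. The limb and urogenital genes Hoxa11 (1100 bp), Hoxc11 (500 bp) and Hoxd11 (900 bp), which form 1 paralog group, all had sites in HE alone, as did Hoxb9 (1200 bp). The Hoxd11 site lay over the start of a noncoding transcript of the gene. Hoxd9 had a site of 600 bp in HB alone. Hoxa9, the posterior gene most closely tied to blood stem cells and leukaemia, had no promoter site at any stage, and its nearest site in HE was 1.14 kb away. Hoxa13, Hoxc9, Hoxc12, Hoxd12 and Hoxd13 had none either.

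**Figure D2:**
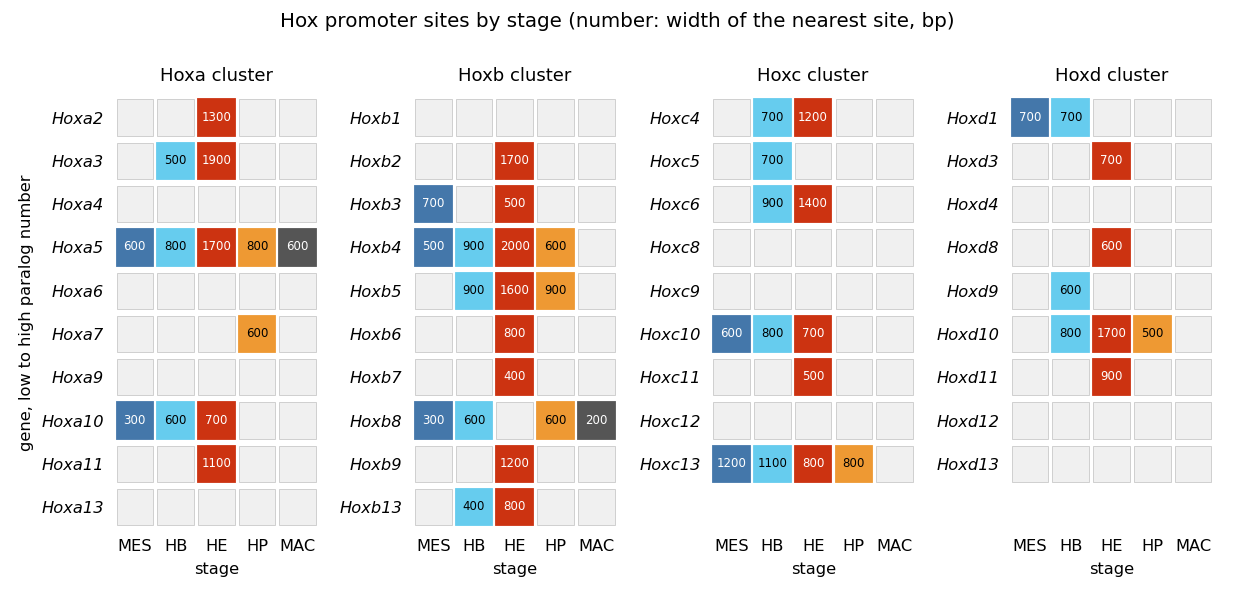
Promoter sites of the 38 Hox genes (rows, by cluster and paralog number) at the 5 stages (columns); a coloured cell has a DHS within 1 kb of a TSS and carries the width of the nearest one in bp, and a grey cell has none. The HE column is the fullest, with 22 of 38 cells, and the MAC column holds Hoxa5 and Hoxb8.

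In all, 10 of 38 Hox genes had a promoter site in HE and at no other stage (26.3%, against 3.03% of all protein-coding genes). Another 11 had none at any stage, so that without the HE list 21 of 38 would have had none (55.3%, against 37.3% of all genes), and Hoxa5 alone had one at all 5 (2.63%, against 42.1%). From MES to HB 8 Hox genes gained a promoter site and Hoxb3 lost its own, by the limit of 1 kb described above, so that 7 of 8 were kept (87.5%, 52.9 to 97.8%, all genes 96.2%). From HB to HE they gained 11 and lost 4, those of Hoxb8, Hoxc5, Hoxd1 and Hoxd9, keeping 11 of 15 (73.3%, 48.1 to 89.1%), where all genes kept 94.8%. From HE to HP they lost 17 of 22 and kept those of Hoxa5, Hoxb4, Hoxb5, Hoxc13 and Hoxd10 (22.7%, 10.1 to 43.4%), where all genes kept 79.9%. Gains at this step were Hoxa7 and Hoxb8. From HP to MAC the losses were Hoxa7, Hoxb4, Hoxb5, Hoxc13 and Hoxd10, so that 2 of 7 were kept (28.6%, 8.22 to 64.1%), where all genes kept 89.4%. Of the 22 Hox genes with a site in HE, the 10 were 45.5% (all genes 5.06%). With lists of equal length the count of genes open in HE alone was 4 of 11 with a site in HE (36.4%, all genes 4.14%). In HP, 4 of the 11 had a site (36.4%, all genes 86.7%).

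Promoter sites of Hox genes were narrower than promoter sites in general. Their median widths were 600 bp (MES), 700 bp (HB), 1000 bp (HE), 600 bp (HP) and 400 bp (MAC), whereas those of all promoter sites were 1000, 1200, 1600, 1100 and 800 bp. The Hox medians rest on 8, 15, 24, 7 and 2 sites, those in MAC being of 200 and 600 bp. In each of the 5 lists the Hox value was the lower, and both were highest in HE. No DHS lay within reach of more than 1 Hox gene.

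The clusters as a whole changed in the same order as the promoters. The 4 spans, from the outermost listed gene on each side plus 20 kb, held 23 sites in MES and 35 in HB. HE had 63, HP 12 and MAC 7. These covered 12.9, 25.1, 64.4, 7.80 and 2.50 kb, or 2.00%, 3.89%, 9.98%, 1.21% and 0.388% of the spans. Of the genome, the lists covered 0.626%, 0.852%, 1.49%, 0.564% and 0.835%. Per base, the clusters were therefore covered 3.20, 4.57, 6.71 and 2.15 times as much as the genome at the stages from MES to HP, and 0.464 times as much in MAC, whose list was the longest of all. With the 17734 widest sites of each list the ratios from MES to MAC were 2.81, 3.62, 5.43, 2.15 and 0, so the order of MES, HB and HE held by this measure. With the sites at or above each list's median width they were 1.11, 1.76, 5.37, 0.732 and 0.155, so that MES came close to the genome and HP fell below it, while HE remained highest.

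**Figure D3:**
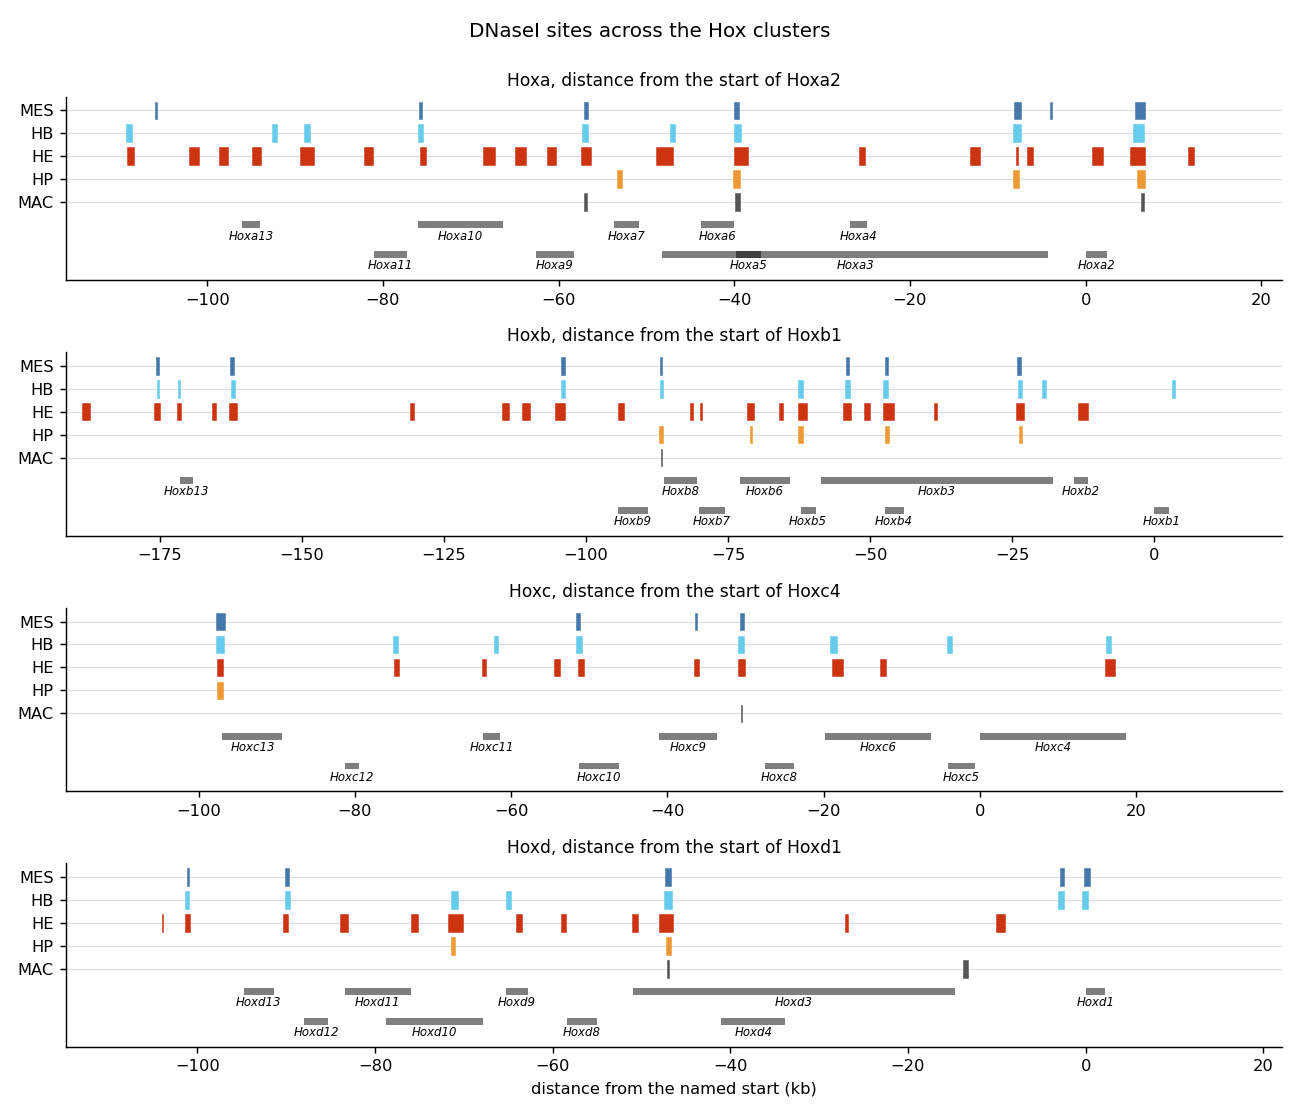
DHSs (coloured bars, to scale) across each Hox cluster at the 5 stages, by distance in kb (horizontal axis) from the start of the gene model of the lowest-numbered listed gene, with the gene models in grey below. Sites are densest in HE, where 20 lie in the Hoxa span, and single sites remain in MAC in the Hoxb and Hoxc spans.

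The Hoxa cluster was the most covered in HE, with 20 sites over 16.2% of its span, followed by Hoxb (21 sites, 11.2%), Hoxd (12 sites, 7.16%) and Hoxc (10 sites, 5.33%). In HB the clusters were closer together, at 4.84% (Hoxa), 3.46% (Hoxb), 3.98% (Hoxc) and 3.51% (Hoxd). In HP the Hoxa span held 4 sites, Hoxb 5, Hoxd 2 and Hoxc 1. The longest stretch of the Hoxa span without a site was 31.3 kb in MES, 30.9 kb in HB, 12.6 kb in HE and 62.7 kb in HP. For Hoxb it was 57.3 kb in HB, 34.2 kb in HE and 104.3 kb in HP, and for Hoxd 43.5, 31.3 and 68.8 kb. Hoxc differed, with a longest stretch of 21.9 kb in HB, shorter than the 28.1 kb in HE, and of 135.7 kb in HP. In MAC the Hoxb and Hoxc spans held 1 site of 200 bp each.

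**Figure D4:**
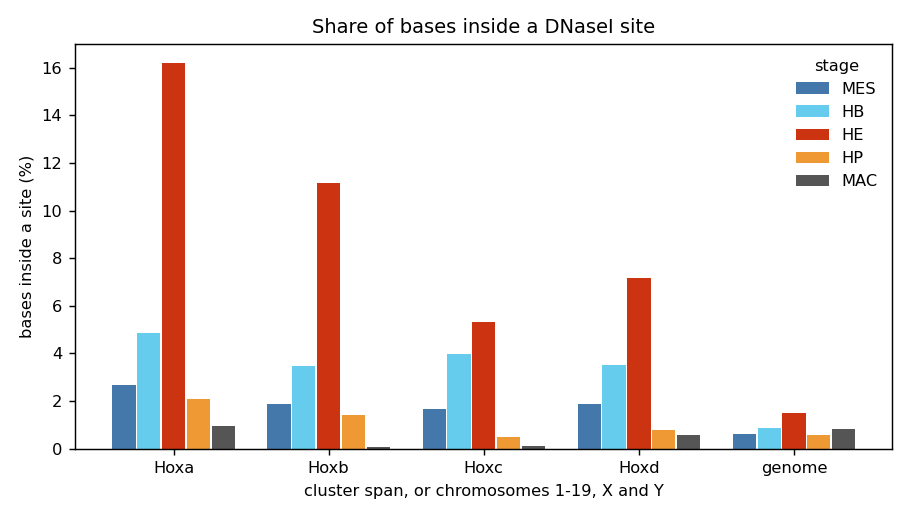
Share of bases inside a DHS (vertical axis, %) in the span of each Hox cluster and in the genome, by stage. HE is highest in all 4 clusters, from 5.33% in Hoxc to 16.2% in Hoxa, and the MAC value exceeds that of the genome (0.835%) in Hoxa alone (0.939%).

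To follow single elements, every site was replaced by a window of 500 bp at its centre, and windows that shared enough bases, from the same or different stages, were joined into regions. This gave 79 regions in the clusters, of 68842 in the genome. HE was the one stage with a site for 38 of the 79 (48.1%, 37.4 to 59.0%), against 17.1% of all regions. Of the regions with a site in HE alone or with others, the HE-only share was 60.3% (48.0 to 71.5%), against 35.4%, a smaller contrast. The MAC-only class, which made up 31.0% of all regions, held 1 Hox region (1.27%). Regions shared by all 5 stages were 3 (3.80%, against 13.2%). From HE to HP, 10 of 63 regions were kept (15.9%, 8.86 to 26.8%), against 42.9% of all, and from HP to MAC 4 of 12, against 66.2%. The earlier steps did not set the clusters apart, with 20 of 23 kept from MES to HB (87.0%, all regions 81.5%) and 23 of 35 from HB to HE (65.7%, all regions 63.7%). Of the 38 HE-only regions, 3 came from an HE site that overlapped a site of another stage. Their centres lay too far apart for the 500 bp windows to be joined. With the deposited intervals merged in place of the windows, 35 regions were HE-only. With lists of equal length, 14 of 39 regions were HE-only (35.9%, 22.7 to 51.6%), against 10.6% of all. Keeping in each list only sites no narrower than its median gave 21 of 29 (72.4%), against 18.3%.

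**Figure D5:**
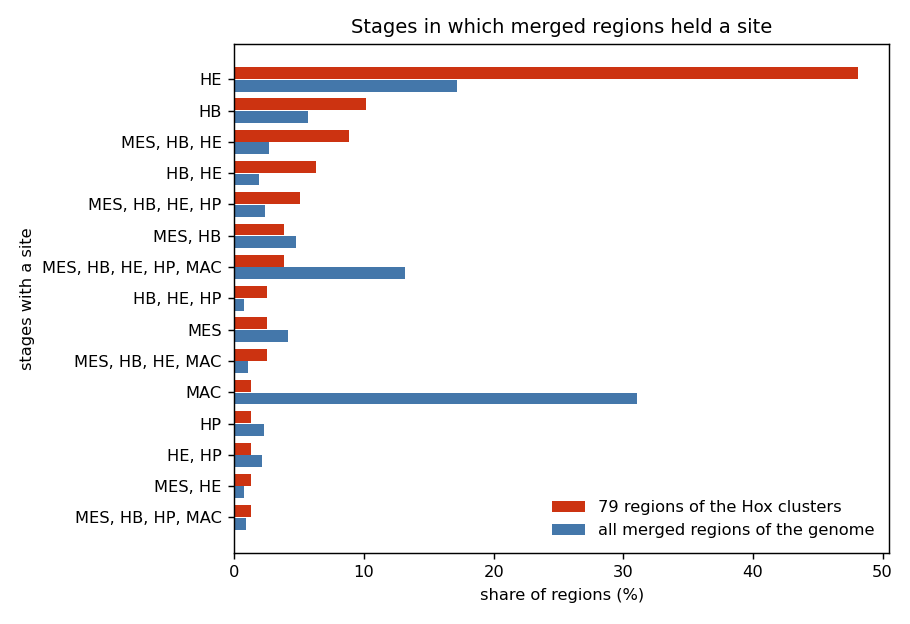
Share of merged regions (horizontal axis, %) with sites at the stages named on the vertical axis, for the Hox clusters (red) and for all regions of the genome (blue). HE alone takes 48.1% of the Hox regions against 17.1% of all, and MAC alone 1.27% against 31.0%.

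By their centres, 19 of the 79 regions were intergenic, 18 in introns, 15 in UTR exons, 14 in coding exons and 13 in exons of noncoding genes. CpG-rich sequence was found in 38 (48.1%), against 18.2% of all regions, and in 15 of the 38 HE-only regions (39.5%), against 8.47% of all HE-only regions. Among the regions kept longest, that of the Hoxa5 promoter was chr6:52203809-52204847, and that in Hoxd3os1, a noncoding gene opposite Hoxd3, was chr2:74715520-74716269 with widths of 700, 900, 1600, 600 and 300 bp from MES to MAC. The third lay in the Hoxa cluster 6.20 kb from Hoxa2, over the start of the noncoding gene Hotairm1. A pair of intergenic regions were listed at every stage but HP, chr6:52221448-52222079 between Hoxa7 and Hoxa9 and chr15:102987311-102987873 upstream of Hoxc8. In the Hoxa region the widths were 400 bp (MES), 600 bp (HB), 1200 bp (HE) and 300 bp (MAC). The region missing from HE alone was chr11:96278714-96279256, 0.416 kb upstream of the nearest predicted Hoxb8 start.

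Of 12 regions with a site in HB and none in HE, 8 were in the HB-only class and 3 in that of MES and HB, and the other was that upstream of Hoxb8. A wider HE site with a shifted centre overlapped the HB site in 3 of the 12, at Hoxa3 and Hoxc6 (both HB-only) and in Gm53, so these 3 did not lack a DHS in HE. Near Hoxd1, chr2:74759998-74760590 and chr2:74762698-74763390 were listed in MES and HB, as was chr11:96261457-96261966 in Gm53. Regions with a site in HE and HP alone came to 1, chr11:96294411-96295013, in an intron of Hoxb6 and Hoxb5os. The MAC-only region was chr2:74749225-74749724, in an exon of the noncoding gene Haglr next to Hoxd1, and the HP-only region was that of Hoxa7. Of the HE-only regions, chr2:74753120-74753619 in Gm14424 held both PBX-HOX matches found in the clusters.

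Short sequence motifs were counted in the central 500 bases of each region, on both strands. Matches to the simplified CTCF core were found in 4 of 79 regions (5.06%, all regions 6.67%), those of Hoxd3os1, Gm53, Hoxb7 and Hoxb3. The motif of the PBX-HOX pair was in 1 region (1.27%, all regions 5.12%), and the CDX motif, which posterior HOX proteins also bind, in 14 (17.7%, all regions 15.0%). The GATA motif was in 13 (16.5%, all regions 23.0%), TGTGGT (RUNX factors) in 18 (22.8%, all regions 33.2%) and CATTCC (TEAD factors) in 23 (29.1%, all regions 26.7%). Direct repeats of exactly GGTCA with 5 or 2 bases between them were in none, and in 0.208% and 0.388% of all regions. The unit that retinoic acid receptors bind is longer, which changes the spacing. These counts therefore do not tell whether the regions hold sites for those receptors. The motifs can overlap one another, and a match describes the letters in the window and no binding.

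Noncoding genes in the cluster spans had promoter sites in 8, 11, 17, 3 and 2 of 33 cases from MES to MAC (24.2%, 33.3%, 51.5%, 9.09% and 6.06%), against 16.6%, 18.3%, 21.9%, 13.8% and 16.4% of all 13865 lncRNA and miRNA genes. These are in part the same DHSs, since 1, 5, 5, 0 and 0 of the genes shared a site with a Hox promoter. Hottip, a noncoding RNA at the posterior end of Hoxa that recruits Mll1 complexes, and Hoxa11os had sites in HE alone, whereas Hotair in Hoxc had none. The clusters also hold miRNA genes that repress Hox mRNAs. The mature miRNAs of the 2 families concerned are given from RefSeq with the seed, bases 2 to 8, in capitals.
mmu-miR-10a-5p: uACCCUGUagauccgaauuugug
mmu-miR-10b-5p: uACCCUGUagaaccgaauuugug
mmu-miR-196a-5p: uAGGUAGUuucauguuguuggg
mmu-miR-196b-5p: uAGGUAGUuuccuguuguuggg
Within each family the seed is shared, and the members differ by 1 base, counted from the 5′ end (U12A from miR-10a to miR-10b, and A12C from miR-196a to miR-196b). Mir10a in Hoxb had a site within 1 kb in HB and HE, 0.842 and 0.746 kb away. These were the DHSs of the Hoxb4 promoter, whose sites in MES and HP lay 1.25 and 1.20 kb from Mir10a, so the limit set this difference between stages. Mir10b in Hoxd had none. Mir196b in Hoxa had one in HE alone, and Mir196a-1 in Hoxb and Mir196a-2 in Hoxc, which encode the same mature miR-196a-5p, had none. Starts of miRNA genes in the annotation are those of the hairpin and not of the primary transcript.

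Among all protein-coding genes, 42.1% had promoter sites at all 5 stages, and 69.9% of those with a CpG-rich promoter did. Of 14 genes listed as acting on the clusters, 8 had them (Kmt2a and its partner Men1, the Polycomb genes Ezh2, Eed and Suz12, the retinoic acid receptor genes Rara and Rarg, and Ctcf), a share between these. Bmi1, of the other Polycomb complex, had none in MAC, and Rarb none in HP. Cyp26a1, which degrades retinoic acid, was open from MES to HE. Of the Cdx genes, upstream activators of the Hox clusters, Cdx1 had a site in MES alone and Cdx2 and Cdx4 had none. Next to the Hox genes, the homeobox genes Evx1 and Evx2 had sites in MES, HB and HE and none in HP or MAC. Evx2 lies in the margin of the Hoxd span, so its sites are among those counted there. Of the 10 neighbours in the annotation 7 (Skap2, Snx10, Mtx2, Lnpk, Cbx1, Smug1 and Calcoco1, which are no homeobox genes) had sites at all 5 stages, close to the share of genes with a CpG-rich promoter, and Skap1 had one in HB. In each of HP and MAC, 9 of the 14 and 7 of the 10 had a site, most of them genes with sites at all 5 stages. Whether depth or calling had a part in the low Hox counts of these lists was not tested.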

How the data were processed

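DHSs of 5 stages (MES, HB, HE, HP and MAC, 1 list each) were analysed. The authors trimmed reads with CutAdapt, aligned them to mm10 with Bowtie, kept unique reads, dropped PCR duplicates (Picard), and DFilter then gave the sites, in steps of 100 bp. Versions are not given in the sources used here. The submitters' processing notes also name HOMER. What was deposited is the position of each site, its start and end in bp, without a score or count. These values give no limit of detection. The study states aligned reads per library, from which only the order of depth was taken. The MAC label covers 2 replicates, for which 1 list was used. Enzyme amount and PCR cycles varied between preparations, per the labels, and are not given by stage, so their part was not tested.

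TSS were those of all RefSeq transcripts (GRCm38.p6, 21 chromosomes). A promoter site lay within 1 kb of a TSS. Sites set to 500 bp were merged where they shared enough bases. The study's window and overlap were used, but around the middle of each interval in place of the summit and over 5 stages. Shares carry Wilson intervals (95%). Every Hox gene was named by its pattern of stages, and regions by transition, by single stage or by width. Members and lists were chosen with earlier results of these data known. Alternatives changed the reach, the TSS set, the overlap, the margin and the sites used. Scripts ran in Python 3.11.15 with numpy 2.4.6 and scipy 1.17.1 and were tested on simulated data.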

Additional observations from a re-analysis of the deposited data

How the results depend on the processing

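No paired analysis was possible because each stage was 1 list. Of 72 alternatives, 45 left a count within 1.5 times its value and 27 moved it. With a reach of 100 bp, Hox genes with a promoter site numbered 4 in MES and 1 in MAC, and with curated TSS 1 in MAC (Hoxb3, Hoxb8 and Hoxc6 then had none at any stage). With sites at or above each list's median width, the counts from MES to MAC were 1, 4, 11, 1 and 1 genes and 3, 7, 24, 2 and 1 sites, with 29 merged regions, 24 of a single stage and 0 of all 5, and 1 gene had a site in both HE and HP. With the widest sites up to the length of the shortest list, genes fell to 11 in HE and 0 in MAC, and sites to 15 (MES), 20 (HB), 24 (HE) and 0 (MAC), with 39 regions, 22 of a single stage and 0 of all 5. Genes open in HE alone were then 4. The counts of genes open in HE alone and in both HE and HP were chosen after seeing the data. Fewer sites entered under both. Hox genes with a site were more in HE than in any other list under every alternative of reach, TSS and width, by 11 against 10 in HB at the least. Width is no measure of signal, and whether calling set the length and width of the HE list, which is not from the deepest library, was not tested. HP, with few Hox sites, is from the shallowest.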

Other observations

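Paralogs, the copies of a gene in different clusters, shared a promoter pattern in some groups and not in others. Hoxa2 and Hoxb2, Hoxa10 and Hoxc10, and Hoxa11, Hoxc11 and Hoxd11 had the same state at all 5 stages. Hoxb8 and Hoxd8 had the same state at 0 of 5 stages, since Hoxd8 was listed in HE alone and Hoxb8 everywhere else. Hoxa5 and Hoxc5, Hoxa4 and Hoxb4, and Hoxc13 and Hoxd13 matched at 1 of 5. The paralogs of Hoxb4, namely Hoxa4, Hoxc4 and Hoxd4, had promoter sites at 0, 2 and 0 stages.

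Some genes without a promoter site in HE had a DHS just past the limit. The nearest HE site was 1.10 kb from the TSS for Hoxa4, 1.11 kb for Hoxd9, 1.14 kb for Hoxa9 and 1.17 kb for Hoxa13. With a reach of 2 kb, 27 of 38 Hox genes (71.1%) had a site in HE and 18 in HB, against 61.3% and 58.5% of all protein-coding genes.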
